A study of Mus musculus with 9 samples.

Results

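The 68 genes described here are named for nuclear-encoded subunits of respiratory complexes I, II, III and V, with cytochrome c. They were chosen by name: Nduf followed by a, b, c, s or v and a digit, Uqcr, Atp5, Sdha to Sdhd, Cyc1 and Cycs, without pseudogene names. They made up 68 of the 37840 genes listed in the series, with 37 in complex I, 4 in complex II, 9 in complex III, 17 in complex V and cytochrome c itself, and all 68 were listed in each of the 9 libraries. These counts follow the names. Ndufa4 is counted with complex I and Atp5sl with complex V, although their products are placed elsewhere below, and Ndufab1 falls outside the rule. RNA of nuclei from ventricles of C57BL6/J mice had been measured by Drop-seq, in which a nucleus is caught in a droplet with a bead that primes on poly(A) tails and counts molecules with unique molecular identifiers (UMIs). There were 3 libraries from ERRalphaKO/ERRgammaKO mice at postnatal days 9 to 10 (KO P10), 3 from ERRalphaHet/ERRgammaWT mice at days 9 to 10 (control P10) and 3 from ERRalphaHet/ERRgammaWT mice at day 6 (control P6). The controls therefore also lacked 1 functional ERRalpha allele. The labels named no Cre driver and gave sex as not determined. Whether each library was a separate animal was not stated, and the p-values below therefore measure the spread between libraries, which may be technical.

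Complexes I and II pass electrons from NADH and succinate to ubiquinone, complex III passes them on to cytochrome c, and complex IV passes them to oxygen. Complexes I, III and IV pump protons across the inner mitochondrial membrane, and complex V, the ATP synthase, uses the gradient to make ATP. In the heart this chain supplies most of the ATP for contraction, and it expands after birth as the heart turns to fatty acids. ERRα (Esrra) and ERRγ (Esrrg) are nuclear receptors that bind promoters of many of these genes, as NRF1 and YY1 do. The comparisons addressed how the genes change as control hearts mature and how they differ in the knockouts.

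The promoters of 54 of the 68 genes were found in RefSeq sequences of GRCm38.p6, as 59 windows running from 250 bases before to 50 bases after a start of transcription. The receptor element was searched as TCAAGGTCA on both strands, and 2 of the 59 windows held it (3.39%), against 139 of 32851 promoter windows of all genes (0.423%). The looser form TNAAGGTCA, which includes the first, was in 3 windows of these genes (5.08%) and in 1.28% of all windows. The palindromic NRF1 element, with 1 free position, was in 17 windows of 16 of the genes (28.8%), against 4.6% of all windows, and the YY1 element in 5 windows (8.47%), against 0.852%. A match is a description of these letters and not a measure of binding. The windows of Atp5g3, a gene for the rotor ring of ATP synthase, and Sdhd, a membrane anchor of complex II, are shown because they were the 2 that held the full receptor element. Those of Ndufa1, Uqcr11 and Cycs are shown because these genes were lower in KO P10 both in cardiomyocyte-like nuclei and in the low-Malat1 droplets described below. Capitals mark the receptor and NRF1 elements on either strand, and a window without capitals held none of the letters searched.

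Atp5g3, chr2:73911277-73911576, minus strand: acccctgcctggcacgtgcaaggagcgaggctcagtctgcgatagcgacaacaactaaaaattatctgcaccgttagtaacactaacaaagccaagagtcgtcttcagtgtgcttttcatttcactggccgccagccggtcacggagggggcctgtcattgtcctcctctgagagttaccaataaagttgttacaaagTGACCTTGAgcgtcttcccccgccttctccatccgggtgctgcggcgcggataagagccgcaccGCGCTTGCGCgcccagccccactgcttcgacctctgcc

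Sdhd, chr9:50603800-50604099, minus strand: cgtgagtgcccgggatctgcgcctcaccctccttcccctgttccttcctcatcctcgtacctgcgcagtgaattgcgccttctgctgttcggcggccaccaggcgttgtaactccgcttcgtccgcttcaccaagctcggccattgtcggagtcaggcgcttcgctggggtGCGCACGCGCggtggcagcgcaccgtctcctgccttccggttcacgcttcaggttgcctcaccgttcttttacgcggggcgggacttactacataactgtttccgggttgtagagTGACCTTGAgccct

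Ndufa1, chrX:37191189-37191488, minus strand: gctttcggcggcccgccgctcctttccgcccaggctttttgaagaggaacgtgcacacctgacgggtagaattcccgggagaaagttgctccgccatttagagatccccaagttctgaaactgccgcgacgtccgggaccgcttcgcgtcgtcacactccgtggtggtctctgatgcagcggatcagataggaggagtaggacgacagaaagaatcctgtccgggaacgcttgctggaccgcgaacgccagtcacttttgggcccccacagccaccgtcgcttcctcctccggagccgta

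Uqcr11, chr10:80406772-80407071, minus strand: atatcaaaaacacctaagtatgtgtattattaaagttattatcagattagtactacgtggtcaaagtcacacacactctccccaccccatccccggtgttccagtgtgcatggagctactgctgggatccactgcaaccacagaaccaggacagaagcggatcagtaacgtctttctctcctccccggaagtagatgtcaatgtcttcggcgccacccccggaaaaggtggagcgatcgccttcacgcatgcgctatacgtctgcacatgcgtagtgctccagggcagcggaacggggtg

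Cycs, chr6:50566520-50566819, minus strand: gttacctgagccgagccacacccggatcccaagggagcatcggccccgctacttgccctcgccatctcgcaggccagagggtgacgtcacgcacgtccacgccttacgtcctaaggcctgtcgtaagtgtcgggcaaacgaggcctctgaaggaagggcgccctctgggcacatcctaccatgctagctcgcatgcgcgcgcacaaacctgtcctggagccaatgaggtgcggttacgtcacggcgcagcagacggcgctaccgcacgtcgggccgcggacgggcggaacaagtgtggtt

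The libraries held 2608067 to 5769630 UMIs each. Of 33000 barcodes, 25304 were kept, after 5897 with under 500 UMIs, 464 of KO P10 library 2 that also occurred in KO P10 library 1, and 1335 candidate doublets had been left out. KO P10 libraries 1 and 2 shared 465 barcodes, and no other pair of libraries shared more than 12. Clustering without the 68 genes among the variable genes gave 13 clusters, of which those named from markers held 9796 cardiomyocyte-like nuclei, 4990 fibroblast-like nuclei, 1799 endothelial-like nuclei and 1338 endocardial-like nuclei. The classes were named from these markers, so high values in the own class follow from the naming and are no check of it. Of the 14 cardiomyocyte markers, 6, 7 and 6 were raised 1.5-fold in the clusters named cardiomyocyte-like. The 14 cardiomyocyte markers took 618 per 10000 UMIs in cardiomyocyte-like nuclei, the 11 fibroblast markers 210.0 in fibroblast-like nuclei, the 11 endothelial markers 101 in endothelial-like nuclei and the 9 endocardial markers 120 in endocardial-like nuclei. Cardiomyocyte markers also took 315 per 10000 UMIs in endothelial-like, 229 in fibroblast-like and 204 in endocardial-like nuclei. Endothelial markers took 77.8 in endocardial-like nuclei. Clusters poor in Malat1, an RNA held in nuclei, stayed unnamed and are called low-Malat1 droplets. Control P10 library 1 stood apart, with 1923 barcodes under 500 UMIs and with 23.8% of the UMIs of its cardiomyocyte-like nuclei from mitochondrially encoded genes, against 7.33% and 11.9% in the other control P10 libraries. In cardiomyocyte-like nuclei Esrra was counted 9, 35 and 23 times in KO P10 libraries 1 to 3, against 74, 177 and 120 times in control P10, and was lower with a log2 fold change of -2.33 ± 0.33 (SE, edgeR adjusted p = 0.000424). Esrrg was also lower in KO P10, by a log2 fold change of -1.12 ± 0.28 (edgeR adjusted p = 0.0141).

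Together the 68 genes took between 72.6 and 374 per 10000 UMIs in the named classes of single libraries, and the groups overlapped in every named class when KO P10 was set against control P10. In cardiomyocyte-like nuclei they took 112, 85.0 and 111 per 10000 UMIs in KO P10 libraries 1 to 3, against 72.6, 154 and 128 in control P10 and 137, 159 and 205 in control P6. In fibroblast-like nuclei they took 115, 130.2 and 140.4 in KO P10, against 87.0, 156 and 149 in control P10 and 136, 162 and 187 in control P6. Control P10 library 1 was the lowest library of its group in all 4 named classes, and without it both other control P10 libraries lay above all KO P10 libraries in cardiomyocyte-like, endocardial-like and fibroblast-like nuclei. In endothelial-like nuclei the sums were 130.2, 179 and 238 in KO P10, against 132, 271 and 236 in control P10 and 188, 256 and 374 in control P6. In endocardial-like nuclei they were 109, 112 and 143 in KO P10, against 93.3, 174 and 147 in control P10 and 161, 223 and 221 in control P6. Pericyte-like, macrophage-like and epicardial-like nuclei were too few to compare between groups, and pooled over the libraries the genes took 173, 176 and 174 per 10000 UMIs in them, with exact 95% Poisson intervals of 169 to 177, 169 to 184 and 166 to 182 that cover counting error only.

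**Figure D1:**
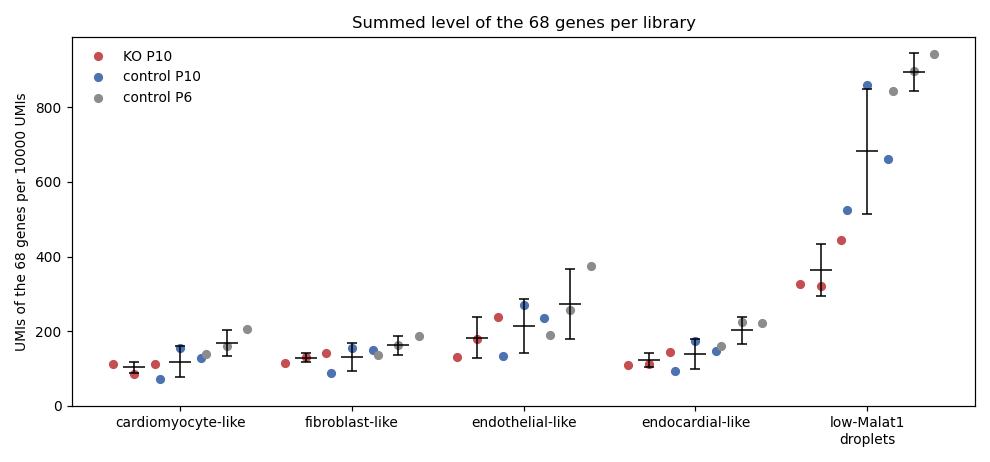
UMIs of the 68 genes per 10000 UMIs (y axis) in the 4 named classes of nuclei and in low-Malat1 droplets (x axis). Points are libraries 1 to 3 from left to right, and bars give the mean ± SD of 3 libraries. KO P10 and control P10 overlap in all 4 named classes, and in low-Malat1 droplets the KO P10 libraries at 320 to 443 lie below the control P10 libraries at 525 to 860.

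In cardiomyocyte-like nuclei, 6 of the 67 genes tested fell in KO P10 and none rose, where 6.75% of all genes were higher. They were Ndufa1 and Ndufs1 of complex I, Uqcr11 of complex III, Cycs, and Atp5l and Atp5s of complex V, with log2 fold changes between -1.22 and -0.88. The 6 genes are 8.96% of those tested, against 6.46% of all 10373 genes that were lower by the same edgeR test (adjusted p under 0.05), so their share was near the background. The median log2 fold change of the 67 genes was -0.33, against 0.01 over all genes tested, and 47 of the 67 were below 0. Counted without a test, 12 genes (17.9%) lay below control P10 in every KO P10 library, against 14.8% of all genes.

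Atp5l (chr9:44912557-44920742, minus strand) encodes subunit g in the membrane part of ATP synthase. It had 30.1, 36.6 and 29.3 CPM (counts scaled to a common library size) in KO P10 libraries 1 to 3, against 78.2, 77.8 and 68.7 CPM in control P10. All KO P10 libraries were below all control P10 libraries, and the log2 fold change was -1.22 ± 0.25 (SE, edgeR adjusted p = 0.00501). Atp5s encodes coupling factor B, a protein associated with the ATP synthase. It had 16.3, 8.04 and 22.2 CPM in KO P10, against 30.1, 30.2 and 33.1 CPM in control P10, again without overlap and with a log2 fold change of -1.04 ± 0.32 (edgeR adjusted p = 0.0420). The call on Atp5s held under 10 of 21 alternative settings, and that on Atp5l under 20 of 22.

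Ndufs1 (chr1:63143596-63176833, minus strand) encodes the large iron-sulfur subunit of the matrix arm of complex I, through which electrons from NADH pass. Its span is shared with genes on the other strand, Eef1b2 among them, whose reads cannot be told apart without strand. It had 107, 107 and 118 CPM in KO P10, against 200.1, 221 and 189.8 CPM in control P10, with no overlap and a log2 fold change of -0.88 ± 0.21 (edgeR adjusted p = 0.0106). Ndufa1 (chrX:37187588-37191163, minus strand) encodes a small subunit of the membrane arm that complex I needs for its assembly. It had 109 CPM in KO P10 library 1 and 57.0 and 56.6 CPM in the others, against 108, 224 and 177 CPM in control P10. The groups met at KO P10 library 1 and control P10 library 1, and the log2 fold change was -1.21 ± 0.30 (edgeR adjusted p = 0.0147).

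Uqcr11 (chr10:80402997-80406830, minus strand) encodes a small accessory subunit of complex III. It had 218, 125 and 152 CPM in KO P10, against 229, 436 and 348 CPM in control P10, so that the groups did not overlap but were close at library 1 of each (log2 fold change -1.04 ± 0.28, edgeR adjusted p = 0.0202). Cycs (chr6:50562563-50566538, minus strand) encodes somatic cytochrome c, the soluble carrier between complexes III and IV. It had 11.2, 13.9 and 21.2 CPM in KO P10, against 16.6, 37.7 and 43.7 CPM in control P10, with an overlap at KO P10 library 3 and control P10 library 1 (log2 fold change -1.17 ± 0.34, edgeR adjusted p = 0.0316).

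**Figure D2:**
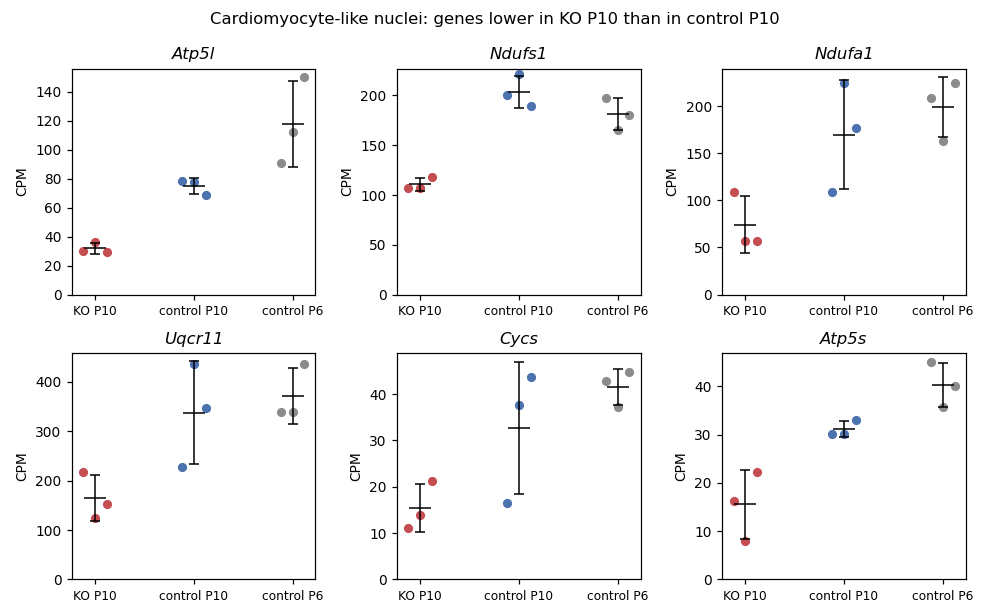
CPM (y axis) of the 6 genes that were lower in KO P10 than in control P10 in cardiomyocyte-like nuclei, by group (x axis). Points are libraries 1 to 3 from left to right, and bars give the mean ± SD of 3 libraries. Atp5l lies at 29.3 to 36.6 CPM in KO P10 and at 68.7 to 78.2 CPM in control P10, and for Ndufa1 and Cycs control P10 library 1 reaches the KO P10 range.

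Of the 3 most abundant genes of each complex, only Uqcr11 passed the test. In complex II, Sdha, the flavoprotein that oxidizes succinate (chr13:74322254-74350280, minus strand), had 161, 220.1 and 229 CPM in KO P10, against 302, 333 and 329 CPM in control P10. The groups were well apart, but the log2 fold change of -0.66 ± 0.22 missed the threshold (edgeR adjusted p = 0.0553). Its iron-sulfur partner Sdhb, at 98.9, 157 and 168 CPM in KO P10 against 170.0, 269 and 234 CPM in control P10, and the membrane anchor Sdhc, at 156, 165 and 191 CPM against 196, 236 and 237 CPM, also lay below control P10 in all libraries, with log2 fold changes of -0.67 ± 0.26 and -0.39 ± 0.22 (edgeR adjusted p = 0.0909 and 0.270). The other anchor, Sdhd, went the other way in log2 fold change (0.55 ± 0.34, edgeR adjusted p = 0.311), with 79.1, 174 and 219 CPM in KO P10 and 57.2, 125 and 133 CPM in control P10, so the groups overlapped.

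In complex V, the catalytic subunits Atp5a1 (alpha) and Atp5b (beta) had log2 fold changes of -0.39 ± 0.25 and -0.14 ± 0.25 (edgeR adjusted p = 0.324 and 0.757). Atp5a1 had 490.1, 595 and 645 CPM in KO P10, against 564, 920.2 and 782 CPM in control P10, and Atp5b had 415, 434 and 437 CPM, against 340.0, 549.8 and 527 CPM. For both, only control P10 library 1 fell within or below the KO P10 range. Atp5g1, Atp5g2 and Atp5g3 encode the same mature protein of the rotor ring, and their log2 fold changes were -0.09 ± 0.32, 0.07 ± 0.38 and -0.53 ± 0.27 (edgeR adjusted p = 0.892, 0.924 and 0.209). Atp5g3 (chr2:73908447-73911326, minus strand) had 407, 392 and 377 CPM in KO P10, against 354, 651 and 685 CPM in control P10, where again only control P10 library 1 was below the knockouts. The peripheral stalk subunit Atp5j and the membrane subunit Atp5j2, named alike but not paralogs, had log2 fold changes of 0.20 ± 0.32 and -0.58 ± 0.29 (edgeR adjusted p = 0.740 and 0.204).

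In complex III, Uqcrq and Uqcrh, both small subunits, had log2 fold changes of -0.86 ± 0.28 and -0.40 ± 0.26 (edgeR adjusted p = 0.0516 and 0.343). Uqcrq had 208, 184 and 235 CPM in KO P10, against 223, 510.3 and 399 CPM in control P10. In complex I, Ndufa4, a subunit now placed in complex IV, had 248, 221 and 291 CPM in KO P10, against 223, 448 and 440.2 CPM in control P10 (log2 fold change -0.56 ± 0.27, edgeR adjusted p = 0.183). Its paralog Ndufa4l2, known for its induction by hypoxia, had at most 12 UMIs in any library and was the only gene not tested. Ndufc1 and Ndufa13 had log2 fold changes of -0.35 ± 0.26 and -0.38 ± 0.31 (edgeR adjusted p = 0.397 and 0.444). By complex, 2 of 36 genes fell in complex I (median log2 fold change -0.25), 0 of 4 in complex II (-0.53), 1 of 9 in complex III (-0.40) and 2 of 17 in complex V (-0.30). In complex II, 2 of the 4 genes had an unadjusted p under 0.05, against 2939 of all 10373 genes.

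Other RNA moved with this comparison in cardiomyocyte-like nuclei. Leaving ribosomal protein genes and Malat1 out of the fit moved the count of genes called by no more than 1.5-fold. The part of other RNA in the result was not tested further. Ribosomal protein genes, mature cytoplasmic RNA, summed to 99.2, 56.1 and 78.9 per 10000 UMIs in KO P10, against 16.6, 42.0 and 30.1 in control P10, so that they were higher in every KO P10 library while the respiratory genes leaned lower. Erythroid markers were at 29.0 to 99.8 in KO P10 and at 12.5 to 22.7 in control P10, the highest being KO P10 library 2. Among the other genes of the chain, 1 of 15 tested complex IV subunits fell. It was Cox7a1, a heart and muscle isoform, with 43.9, 35.1 and 48.5 CPM in KO P10, against 119, 244 and 239 CPM in control P10 (log2 fold change -2.26 ± 0.29, edgeR adjusted p = 0.000201). Of 26 tested assembly factors, 3 fell: Ndufaf4 for complex I (log2 fold change -1.35 ± 0.28, edgeR adjusted p = 0.00517), and Uqcc1 (-0.996 ± 0.22, 0.00685) and Bcs1l (-1.44 ± 0.41, 0.0275) for complex III.

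For the alternative settings here and below, the share of all genes called was not computed. The count of 6 genes depended on the libraries and on the nuclei used. It was 12 without control P10 library 1, 2 without control P10 library 3, 2 without KO P10 library 2, 4 without KO P10 library 3 and 4 without control P10 library 2, of which 2 then rose. Among cardiomyocyte-like nuclei, 1 cluster held most of those of control P6 and another most of those of control P10, and a different one held 867 of the 1248 of KO P10 library 2. Within the P10 cluster alone 4 genes fell, and within the P6 cluster alone 0 fell and 1 rose. When each nucleus was classed by its own marker UMIs, 0 of the 60 genes then tested passed. This left 10 to 148 cardiomyocyte-like nuclei per library, in some libraries under the minimum of 50 set for the main test.

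Low-Malat1 droplets showed a wider difference of the same direction. They were 44.9%, 25.3% and 29.7% of the kept barcodes in KO P10 libraries 1 to 3, 30.5%, 18.1% and 19.3% in control P10 and 9.06%, 13.4% and 12.3% in control P6. Cardiomyocyte markers took 579, 1054 and 826 per 10000 UMIs in them in KO P10, against 626, 660.0 and 722 in control P10. The test on these droplets was added after the data were examined. The largest cluster of them, cluster 3, had erythroid as its best class, with the globin genes Hba-a2, Hbb-bt and Hba-a1 among its 10 leading genes, and held 1336, 455 and 450 droplets in KO P10, against 562, 305 and 408 in control P10. The 7 erythroid markers took 152, 273 and 79.5 per 10000 UMIs in all low-Malat1 droplets of KO P10, against 90.5, 89.4 and 56.1 in control P10, and in cluster 3 they took 166, 400.4 and 133, against 93.5, 145 and 72.2. The 11 fibroblast markers took 196, 41.6 and 68.04 in all droplets of KO P10, against 145, 57.0 and 71.5 in control P10. Both lists overlapped between the groups, with the highest erythroid value in KO P10 library 2 and the highest fibroblast value in KO P10 library 1, and their part in the difference was not tested. Since these droplets were assigned to no cell type, fewer cells of a type and less RNA per cell cannot be told apart in them. The 68 genes took 325, 320 and 443 per 10000 UMIs in KO P10, against 525, 860 and 662 in control P10 and 843, 897 and 943 in control P6, without overlap between KO P10 and control P10. The same order held in the 2 larger clusters of droplets, also in cluster 1, where erythroid markers took 40.1, 171 and 48.6 in KO P10, against 29.1, 59.9 and 37.4 in control P10. In cluster 1 the sums were 341, 347 and 461 in KO P10, against 593, 901 and 678 in control P10, and in cluster 3 they were 323, 286 and 413, against 522, 784 and 646. Ribosomal protein genes ran the other way in these droplets, at 272, 191 and 245 in KO P10 against 125, 170.3 and 129 in control P10. Malat1 overlapped, at 33.3 to 179 in KO P10 and 63.6 to 293 in control P10.

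Of the 67 genes tested in these droplets, 17 fell in KO P10 (25.4%) and none rose, against 2.6% of all 9848 genes that were lower and 2.55% that were higher. The median log2 fold change of the 67 genes was -0.74, against -0.03 over all genes, and 61 of the 67 were below 0. Counted without a test, 32 genes (47.8%) lay below control P10 in every KO P10 library, against 11.4% of all genes. The 17 genes came from every complex, with 8 of 37 in complex I, 1 of 4 in complex II, 3 of 9 in complex III, 4 of 16 in complex V, and Cycs. With 1 library left out at a time all genes called were lower, from 5 genes without control P10 library 3 to 29 without control P10 library 1; 6 fell without control P10 library 2, 7 without KO P10 library 2, 9 without KO P10 library 3, and 11, 9 and 8 without control P6 libraries 1, 2 and 3. Within cluster 1 alone 19 genes fell, and within cluster 3 alone 8. The share of all genes called with libraries left out or in single clusters was not computed.

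The lead genes of complex I in these droplets were Ndufa1 and Ndufa5. Ndufa1 had 373, 268 and 306 CPM in KO P10, against 848, 1340 and 1234 CPM in control P10, wide apart in every library, with a log2 fold change of -1.85 ± 0.30 (edgeR adjusted p = 0.00255). Ndufa5, an accessory subunit of the matrix arm, had 612, 403 and 605 CPM in KO P10, against 1318, 1892 and 1462 CPM in control P10 (log2 fold change -1.53 ± 0.30, edgeR adjusted p = 0.00775). The groups were again far apart, as they were for Ndufs1, which had 205, 209.6 and 266 CPM in KO P10, against 574, 562 and 520.2 CPM in control P10 (log2 fold change -1.28 ± 0.26, edgeR adjusted p = 0.00869). The accessory subunits Ndufa3, Ndufs6, Ndufa10 and Ndufb7 of complex I were also called, with log2 fold changes of -1.39, -1.08, -1.07 and -1.08.

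In complex II only Sdha fell in these droplets, with 274, 412 and 459 CPM in KO P10 against 822, 1003 and 776 CPM in control P10 (log2 fold change -1.19 ± 0.28, edgeR adjusted p = 0.0211). Sdhb, Sdhc and Sdhd overlapped, with log2 fold changes of -0.52 ± 0.36, -0.29 ± 0.32 and 0.08 ± 0.40 (edgeR adjusted p = 0.459, 0.675 and 0.940). Uqcr11 of complex III had 814, 617 and 708 CPM in KO P10, against 1937, 3061 and 2050 CPM in control P10, so the lowest control library was more than 2-fold above the highest knockout (log2 fold change -1.72 ± 0.30, edgeR adjusted p = 0.00461). Uqcrq and Uqcr10, other small subunits of the complex, fell by 1.48 and 1.12 on the log2 scale. Cycs had 46.9, 66.9 and 50.5 CPM in KO P10, against 108, 245 and 135 CPM in control P10, also without overlap (log2 fold change -1.59 ± 0.32, edgeR adjusted p = 0.00839). In complex V the membrane subunits Atp5k and Atp5j2, the rotor gene Atp5g3 and the central stalk subunit Atp5e fell by 1.33, 1.31, 1.16 and 1.23 on the log2 scale. Atp5g3 had 1323, 1897 and 1864 CPM in KO P10, against 2984, 4724 and 3649 CPM in control P10. Atp5l, at 22.5, 8.92 and 14.7 CPM in KO P10 and 16.6, 61.9 and 70.3 CPM in control P10, overlapped at control P10 library 1 and missed the threshold (log2 fold change -1.57 ± 0.46, edgeR adjusted p = 0.0577). Complex IV subunits fell in 4 of 15 tested cases, and 3 of 28 assembly factors fell.

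**Figure D3:**
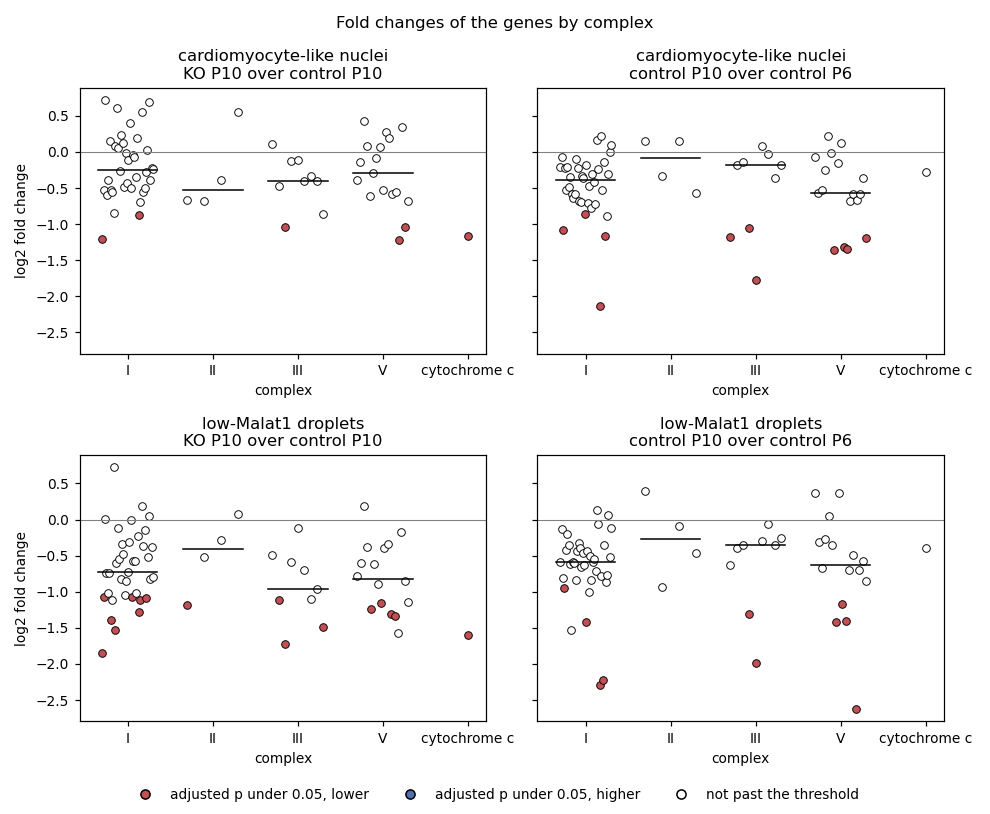
Log2 fold changes of single genes (y axis) by complex (x axis) in cardiomyocyte-like nuclei (top) and low-Malat1 droplets (bottom), for KO P10 over control P10 (left) and control P10 over control P6 (right). Red points passed the threshold as lower, white points did not pass, and lines are the median of a complex. In the droplets 17 genes of all complexes and cytochrome c passed as lower in KO P10, and in cardiomyocyte-like nuclei 6 did, with none in complex II.

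In the other classes of nuclei no gene of the 68 passed the test between KO P10 and control P10 in edgeR. In fibroblast-like nuclei it was 0 of 64 genes tested, where 1.08% of all genes were lower and 1.57% higher by edgeR, and DESeq2 called 2 as lower. At an unadjusted edgeR p under 0.05 there were 7 of the 64, against 1318 of all 8596 genes. Without a test, 5 of the 64 lay below control P10 in every KO P10 library and 5 above it, against 10.3% and 10.2% of all genes. In endothelial-like nuclei it was 0 of 63, with 0 called by DESeq2 and 1.47% of all genes called in either direction, 0.485% as lower. The unadjusted p was under 0.05 for 5 of the 63, against 966 of all 6398 genes. There 4 of the 63 lay below without overlap and 0 above, against 9.82% and 9.58% of all genes. In endocardial-like nuclei it was 0 of 61, with 0 called by DESeq2 and 1.92% of all genes called in either direction, 0.799% as lower. The unadjusted p was under 0.05 for 13 of the 61, against 531 of all 4631 genes. There 5 of the 61 lay below without overlap and 5 above, against 7.84% and 8.68% of all genes. The medians of the log2 fold changes were 0.01, -0.23 and -0.21 in these classes, and 228, 94 and 89 genes of any kind passed the test in them, against 1370 in cardiomyocyte-like nuclei.

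Ndufa1 and Uqcr11 had negative log2 fold changes in each of them, without passing the test, in libraries that the classes share. Of the 61 genes tested in all 4 named classes, 28 were negative in all 4, with Ndufa1 and Uqcr11 among them, and 11 were positive in all 4. Ndufa1 had 107, 64.3 and 114 CPM in fibroblast-like nuclei of KO P10, against 154, 196 and 257 CPM in control P10, without overlap (log2 fold change -1.07 ± 0.29, edgeR adjusted p = 0.0549). Uqcr11 had 277, 193 and 220.4 CPM there in KO P10, against 321, 485 and 476 CPM in control P10, also without overlap (log2 fold change -0.89 ± 0.26, edgeR adjusted p = 0.0767). In endothelial-like nuclei the log2 fold changes of Ndufa1 and Uqcr11 were -1.03 ± 0.43 and -1.10 ± 0.35 (edgeR adjusted p = 0.240 and 0.102), and in endocardial-like nuclei -0.997 ± 0.32 and -1.04 ± 0.33 (edgeR adjusted p = 0.133 and 0.121). Ndufa1 overlapped in endothelial-like nuclei, with 166, 141 and 216 CPM in KO P10, against 114, 429 and 470.3 CPM in control P10, so that control P10 library 1 was below every KO P10 library. Uqcr11 overlapped in endocardial-like nuclei, with 413, 222 and 200.2 CPM in KO P10, against 406, 731 and 551 CPM in control P10. The log2 fold change of Cycs was -0.23 ± 0.37 in fibroblast-like nuclei (edgeR adjusted p = 0.853) and -0.95 ± 0.59 in endothelial-like nuclei (edgeR adjusted p = 0.489). Whether the effect of the knockout differed between cardiomyocyte-like and fibroblast-like nuclei was tested directly as an interaction. It differed for 0 of the 68 genes in edgeR, against 1.18% of all genes at the same adjusted p under 0.05. At an unadjusted p under 0.05 there were 11 of the 68, and the share of all genes at that cut was not computed. Cardiomyocyte markers took 309, 396 and 280 per 10000 UMIs in fibroblast-like nuclei of KO P10, against 291, 164 and 252 in control P10, and the part of cardiomyocyte RNA in these values was not tested.

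**Figure D4:**
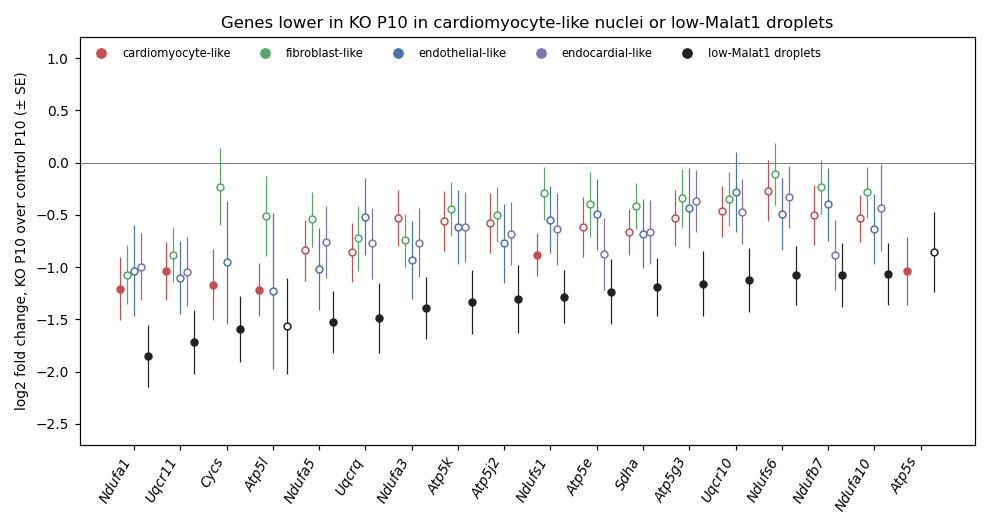
Log2 fold change ± SE of KO P10 over control P10 (y axis) for genes that were lower in cardiomyocyte-like nuclei or in low-Malat1 droplets (x axis), in each class. Filled points passed the threshold. Ndufa1 lies between -1.85 and -0.997 in all 5 sets, and in the endothelial-like, endocardial-like and fibroblast-like nuclei no point is filled.

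Between control P10 and control P6, more of the 67 genes tested in cardiomyocyte-like nuclei fell with age, and none rose, where 8.23% of all genes were higher. The 11 genes that fell (16.4%, against 9.07% of all genes lower) were Ndufs3, Ndufs7, Ndufa11 and Ndufb4 of complex I, Uqcrc1, Uqcrb and Cyc1 of complex III, and Atp5h, Atp5j, Atp5g1 and Atp5sl named with complex V. The median log2 fold change was -0.36, against -0.03 over all genes, and 24 genes (35.8%) lay below control P6 in every control P10 library, against 19.3% of all genes. This comparison shares the control P10 libraries with the comparison of the knockouts. The ages also differed in their libraries. Control P6 listed 27908, 31237 and 29064 genes in 3000 barcodes per library, against 23704, 27821 and 27426 in 4000 barcodes of control P10. Pseudogene names left out of the choice took 0.392, 0.501 and 0.941 per 10000 UMIs in cardiomyocyte-like nuclei of control P6. They took 0.0753, 0.153 and 0.0991 in control P10. The part of these differences in the fall was not tested. Atp5l had 91.0, 113 and 150.1 CPM and Atp5s 44.9, 35.8 and 40.1 CPM in control P6, above every control P10 library, but neither passed the test (log2 fold changes -0.66 ± 0.23 and -0.36 ± 0.29, edgeR adjusted p = 0.0589 and 0.417).

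Uqcrc1 (chr9:108936633-108949623, plus strand), a core protein of complex III, had 13.5, 37.2 and 28.1 CPM in control P10, against 61.4, 110.3 and 112 CPM in control P6, in cardiomyocyte-like nuclei. The groups were well apart, with a log2 fold change of -1.77 ± 0.31 (edgeR adjusted p = 0.00174). Cyc1, the cytochrome c1 heme subunit that hands electrons to cytochrome c, had 91.8, 234 and 179 CPM in control P10, against 252, 420.5 and 481 CPM in control P6 (log2 fold change -1.18 ± 0.33, edgeR adjusted p = 0.0214). Uqcrb, a subunit near the ubiquinone site, had 60.2, 154 and 98.0 CPM in control P10, against 173, 201 and 289.9 CPM in control P6 (log2 fold change -1.06 ± 0.30, edgeR adjusted p = 0.0234). None of these 3 genes overlapped between the ages, and control P10 library 1 was the lowest for each.

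Among the core subunits of complex I, Ndufs3 (chr2:90894634-90904827, minus strand) had 1.505, 2.90 and 4.99 CPM in control P10, against 12.1, 15.7 and 18.6 CPM in control P6, a low level in both but without overlap (log2 fold change -2.14 ± 0.45, edgeR adjusted p = 0.00487). Ndufs3 overlaps a gene on the other strand, Kbtbd4, and reads of the pair cannot be told apart without strand. The same limit holds for Ndufs1, Ndufa11, Uqcrb, Atp5j, Atp5l and Sdha, among other genes described here. Ndufs7, which carries the last iron-sulfur cluster before ubiquinone, had 30.1, 95.8 and 106 CPM in control P10, against 147, 171 and 222 CPM in control P6 (log2 fold change -1.17 ± 0.33, edgeR adjusted p = 0.0218). The membrane-arm subunits Ndufa11, at 66.2, 181 and 101 CPM against 157, 277 and 316 CPM, and Ndufb4, at 31.6, 66.8 and 41.2 CPM against 95.3, 60.4 and 107 CPM, overlapped between control P10 and control P6 (log2 fold changes -1.08 ± 0.32 and -0.86 ± 0.29, edgeR adjusted p = 0.0282 and 0.0492). The call on Ndufb4 held under 6 of 21 alternative settings, the fewest among the 11 genes, and its log2 fold change ranged between -1.21 and -0.29 in them.

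In complex V, Atp5h and Atp5j of the peripheral stalk fell with Atp5g1 of the rotor ring. Atp5h had 93.3, 198 and 172 CPM in control P10, against 355, 368 and 446 CPM in control P6 (log2 fold change -1.32 ± 0.26, edgeR adjusted p = 0.00321). Atp5j had 81.2, 220.0 and 212 CPM in control P10, against 390.1, 404 and 529 CPM in control P6 (log2 fold change -1.34 ± 0.32, edgeR adjusted p = 0.00963). For both genes even the highest control P10 library was far below the lowest of control P6. Atp5g1 had 42.1, 135 and 109 CPM in control P10, against 203, 236 and 314 CPM in control P6 (log2 fold change -1.36 ± 0.31, edgeR adjusted p = 0.00800), and its sister genes Atp5g2 and Atp5g3 had log2 fold changes of -0.15 ± 0.38 and 0.13 ± 0.27 (edgeR adjusted p = 0.813 and 0.770). Atp5sl, whose product is known as an assembly factor of complex I despite its name, had 15.0, 22.1 and 28.7 CPM in control P10, against 50.4, 39.5 and 67.1 CPM in control P6 (log2 fold change -1.19 ± 0.29, edgeR adjusted p = 0.01005). In complex II no gene passed, and the log2 fold changes of Sdha, Sdhb, Sdhc and Sdhd were 0.16, -0.33, 0.15 and -0.56.

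Ribosomal protein genes also moved with age in cardiomyocyte-like nuclei: 55 of 73 tested fell, and their sums were 16.6, 42.0 and 30.1 per 10000 UMIs in control P10, against 56.0, 70.7 and 85.5 in control P6. Leaving them and Malat1 out of the fit moved the count of genes called by no more than 1.5-fold. Their part in the fall of the respiratory genes was not tested further. Complex IV subunits fell in 6 of 15 tested cases, Cox7c (log2 fold change -1.39 ± 0.25, edgeR adjusted p = 0.00193) and Cox6b2 (-2.90 ± 0.52, 0.00202) among them. Of 26 assembly factors 2 fell, Atpaf2 and Ndufaf7, and 1 rose, Sdhaf3. The count of 11 genes was 3 without control P6 library 3, 7 without control P6 library 2, 6 without control P10 library 1, 7 without control P10 library 3 and 15 without control P10 library 2. It was 9 within the cluster that held most control P6 nuclei and 5 within the cluster that held most control P10 nuclei. With the low-Malat1 cluster led by cardiomyocyte genes added to the class, 1 gene passed, and the median log2 fold change of the 67 genes turned to 0.37.

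Several genes fell with age in other classes too, in the same libraries. In fibroblast-like nuclei 10 of 64 genes fell and 0 rose (7.85% of all genes were lower and 8.28% higher), in endothelial-like nuclei 6 of 63 fell and Ndufs1 rose (12% of all genes were lower and 11.9% higher), and in endocardial-like nuclei 11 of 61 fell and 0 rose (8.21% of all genes were called, 4.45% lower and 3.76% higher). Without a test, 14 of the 64 genes lay below control P6 in every control P10 library of fibroblast-like nuclei and 1 above it, against 16.4% and 17.8% of all genes, and 6 below and 2 above in endothelial-like nuclei, against 21.8% and 20.2%. In endocardial-like nuclei 24 of the 61 lay below and 0 above, against 13.5% of all genes in either direction. Uqcrc1 had 13.7, 27.7 and 41.2 CPM in fibroblast-like nuclei of control P10, against 83.3, 105 and 76.7 CPM in control P6 (log2 fold change -1.62 ± 0.35, edgeR adjusted p = 0.00624). In endocardial-like nuclei it had 0, 66.4 and 11.0 CPM in control P10, against 129, 188 and 190 CPM in control P6 (log2 fold change -2.25 ± 0.58, edgeR adjusted p = 0.0165). The ages did not overlap for Uqcrc1 in either class. These counts moved with single libraries. In fibroblast-like nuclei 17 genes passed without control P6 library 1, of which 1 rose, 2 without control P6 library 2 or 3, 5 without control P10 library 1 and 4 without control P10 library 3. In endothelial-like nuclei 4 passed without control P6 library 3 and 2 without control P10 library 3, and in endocardial-like nuclei 1 passed without control P6 library 2 and 2 without control P6 library 3, control P10 library 1 or control P10 library 3.

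Atp5j and Atp5h were below control P6 in every control P10 library of all 3 of these classes. Atp5j had 74.2, 241 and 289.9 CPM in control P10, against 530.5, 451 and 550.4 CPM in control P6, in fibroblast-like nuclei (log2 fold change -1.31 ± 0.36, edgeR adjusted p = 0.0219). Its log2 fold changes were -1.62 ± 0.40 in endothelial-like and -1.85 ± 0.34 in endocardial-like nuclei (edgeR adjusted p = 0.00423 and 0.00232). Those of Atp5h were -1.14 ± 0.26 in fibroblast-like nuclei, -1.14 ± 0.34 in endothelial-like nuclei and -1.65 ± 0.34 in endocardial-like nuclei (edgeR adjusted p = 0.00786, 0.0145 and 0.00419). Uqcrb fell in the same 3 classes with log2 fold changes of -1.20 ± 0.28, -1.29 ± 0.35 and -1.50 ± 0.37, and Ndufb4 with -1.09 ± 0.30, -1.22 ± 0.34 and -1.51 ± 0.47. Atp5l had 44.0, 22.4 and 32.9 CPM in fibroblast-like nuclei of control P10, against 65.8, 84.7 and 76.7 CPM in control P6 (log2 fold change -1.26 ± 0.35, edgeR adjusted p = 0.0225), and 0, 27.6 and 60.4 CPM in endothelial-like nuclei, against 79.7, 146 and 153 CPM (log2 fold change -1.69 ± 0.43, edgeR adjusted p = 0.00507). Ndufs5, an accessory subunit of complex I, fell in endothelial-like nuclei (log2 fold change -1.29 ± 0.38, edgeR adjusted p = 0.0137), and Ndufc2 and Ndufa11 fell in endocardial-like nuclei (log2 fold changes -1.39 ± 0.37 for each, edgeR adjusted p = 0.0188 and 0.0212). Ndufs1 in endothelial-like nuclei was the exception, with 254, 271 and 255 CPM in control P10, against 109, 137 and 189 CPM in control P6 (log2 fold change 0.86 ± 0.30, edgeR adjusted p = 0.0369). Cardiomyocyte markers took 479, 338 and 415 per 10000 UMIs in these endothelial-like nuclei of control P10, against 127, 128 and 206 in control P6, and their part in the level of Ndufs1 was not tested.

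The age effect differed between cardiomyocyte-like and fibroblast-like nuclei for 3 of the 68 genes, Cyc1, Atp5sl and Atp5a1, each with a more negative change in cardiomyocyte-like nuclei. The same test called 3.25% of all genes, so the count of 3 was near the background. This count was 1 when control P10 library 1, or control P6 library 2, or control P6 library 3 was left out. In low-Malat1 droplets 10 of 67 genes fell with age (14.9%, against 7.23% of all genes lower), the lowest log2 fold changes being those of Atp5l (-2.62 ± 0.43, edgeR adjusted p = 0.000610) and Ndufs3 (-2.29 ± 0.34, edgeR adjusted p = 0.000312). This count was 4 without control P6 library 3 or control P10 library 3, 5 without control P6 library 2, 6 without control P10 library 1 and 16 without control P10 library 2. Within droplet clusters 1 and 3, which held 12 to 35 droplets per library in control P6, the sums of the 68 genes did not show a fall: they were 593, 901 and 678 in control P10 against 769, 654 and 814 in control P6 in cluster 1, and 522, 784 and 646 against 504, 587 and 497 in cluster 3. Most control P6 droplets were in the remaining cluster 0, with 127, 285 and 250 droplets in libraries 1 to 3, and their sums were 905, 938 and 969.7. Control P10 had 1, 10 and 8 droplets there, too few to compare.

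Summed over all barcodes of a library, with cell types mixed, 11 of 68 genes fell in KO P10 and none rose (16.2% of them, against 6.86% of all genes lower and 9.47% higher). These sums held all 33000 barcodes, also those under 500 UMIs, the candidate doublets and the barcodes shared by KO P10 libraries 1 and 2. Without a test, 25 lay below control P10 in every KO P10 library and 4 above it, against 15.2% and 18.2% of all genes. The lowest were Ndufa1 (log2 fold change -1.17 ± 0.24, edgeR adjusted p = 0.00498), Uqcr11 (-1.10 ± 0.26, 0.0103) and Cycs (-1.03 ± 0.20, 0.00432). Between the ages, 9 genes fell (13.1% of all genes were lower) and 4 rose (10.8% were higher), namely Sdha, Atp5g3, Atp5a1 and Ndufs1. Sdha had 507, 463 and 413 CPM in control P10, against 254, 288 and 300.3 CPM in control P6 (log2 fold change 0.72 ± 0.20, edgeR adjusted p = 0.0174). The count of 11 was 5 without control P10 library 3 and 7 without control P10 library 2, KO P10 library 2 or control P6 library 2, and the count of 13 for the ages was 6 to 8 when control P10 library 1 or 3, or control P6 library 2 or 3, was left out. The share of low-Malat1 droplets, rich in these genes, was 18.1% to 30.5% in control P10 and 9.06% to 13.4% in control P6, and its part in these sums was not tested.

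Across classes of nuclei, all 4 genes of complex II were higher in cardiomyocyte-like than in fibroblast-like nuclei. In all, 24 of the 68 genes were higher in cardiomyocyte-like than in fibroblast-like nuclei and 1 was lower, where 26.7% of all 10523 genes were higher and 31.5% lower. Against endocardial-like nuclei 22 were higher and 0 lower, where 26.1% of all genes were higher and 25.4% lower. Against endothelial-like nuclei the direction turned, with 7 higher and 42 lower, where 27.7% were higher and 29.3% lower. These calls are on counts scaled with factors shared over the classes. Plain sums of the 68 genes, pooled over the libraries, were lowest in cardiomyocyte-like nuclei. They were 130 per 10000 UMIs there, against 139 in fibroblast-like, 150 in endocardial-like and 243 in endothelial-like nuclei. Only complex II, at 8.19, was above fibroblast-like (6.52) and endocardial-like nuclei (6.90) in these sums. By complex, against fibroblast-like nuclei 9 of 37 were higher in complex I, 2 of 9 in complex III and 9 of 17 in complex V. Against endothelial-like nuclei 28 of 37 were lower in complex I, 6 of 9 in complex III and 8 of 17 in complex V, and 0 of 4 in complex II.

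Sdha ranged over the 9 libraries between 201 and 433 CPM, with a median of 356, in cardiomyocyte-like nuclei, against 121 to 229 CPM with a median of 173 in fibroblast-like nuclei. It was higher in 9 of 9 libraries (log2 fold change 1.00 ± 0.12, edgeR adjusted p = 1.39e-09). In endocardial-like nuclei it ranged between 114 and 296 CPM with a median of 165, again lower than in cardiomyocyte-like nuclei in 9 of 9 libraries (log2 fold change 0.97 ± 0.14, edgeR adjusted p = 7.81e-08). Endothelial-like nuclei, at 158 to 423 CPM, were closest (log2 fold change 0.40 ± 0.13, edgeR adjusted p = 0.00615). Against fibroblast-like nuclei Sdhc, Sdhb and Sdhd were higher with log2 fold changes of 0.79 ± 0.14, 0.56 ± 0.12 and 0.39 ± 0.13 (edgeR adjusted p = 4.25e-06, 0.000108 and 0.0110), and Sdhd was the member of complex II that did not pass against endocardial-like nuclei. The other members, Sdhc and Sdhb, were higher than in endocardial-like nuclei with log2 fold changes of 0.86 ± 0.16 and 0.76 ± 0.14 (edgeR adjusted p = 1.63e-05 and 1.20e-05).

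In complex V, Atp5l had a median of 101 CPM in cardiomyocyte-like nuclei, within 37.5 to 196, against a median of 31.0 CPM within 10.9 to 77.0 in fibroblast-like nuclei, and was higher in 9 of 9 libraries (log2 fold change 1.32 ± 0.19, edgeR adjusted p = 1.16e-07). It was also higher than in endocardial-like nuclei (1.54 ± 0.27, 4.14e-06) and endothelial-like nuclei (0.97 ± 0.21, 0.000143). Atp5sl, Atp5g2 and Atp5s were higher than in fibroblast-like nuclei with log2 fold changes of 1.80 ± 0.26, 1.27 ± 0.28 and 0.94 ± 0.21. The same 3 genes were higher than in endothelial-like nuclei, with log2 fold changes of 0.98 ± 0.28, 1.00 ± 0.34 and 0.90 ± 0.25. Against endocardial-like nuclei Atp5sl and the catalytic Atp5a1 were higher (1.04 ± 0.34 and 0.79 ± 0.15), in 7 of 9 and 9 of 9 libraries. Atp5g2, the least counted of the rotor genes, had a median of 20.5 CPM within 9.90 to 31.8 in cardiomyocyte-like nuclei, against 7.71 CPM within 2.79 to 13.8 in fibroblast-like nuclei. In complex I, Ndufs1 had a median of 236 CPM within 133 to 287, against 106 CPM within 62.4 to 143 in fibroblast-like nuclei (log2 fold change 0.99 ± 0.14, edgeR adjusted p = 3.90e-08), and Ndufs4, an accessory subunit needed for the full assembly of the matrix arm, had a log2 fold change of 0.72 ± 0.12. Against endocardial-like nuclei Ndufs1, Ndufs4 and Ndufv1, the subunit that binds NADH, were higher with log2 fold changes of 0.95 ± 0.17, 0.73 ± 0.14 and 0.59 ± 0.19, in 9, 9 and 8 of 9 libraries. Cyc1 of complex III was higher than in fibroblast-like nuclei (0.73 ± 0.16, edgeR adjusted p = 8.54e-05) and than in endocardial-like nuclei (0.78 ± 0.18, edgeR adjusted p = 0.000226). The 1 gene lower in cardiomyocyte-like nuclei was Ndufa4l2, with a median of 5.18 CPM within 1.96 to 11.0, against 9.89 CPM within 0 to 42.7 in fibroblast-like nuclei (log2 fold change -1.52 ± 0.36, edgeR adjusted p = 0.000340).

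Against endothelial-like nuclei the lower genes were led by Ndufa4l2 (log2 fold change -1.59 ± 0.42), Ndufa8 (-0.79 ± 0.15), Ndufa2 (-0.67 ± 0.12), Uqcr11 (-0.59 ± 0.12), Ndufb6 (-0.58 ± 0.14) and Ndufb11 (-0.57 ± 0.13), and for the last 5 the direction turned when each nucleus was classed by its own marker UMIs. Ndufa4l2 was near the floor, with a mean of 5.40 CPM against 17.0 CPM and 0 to 59.9 CPM in single libraries of endothelial-like nuclei. It was higher in cardiomyocyte-like nuclei in 3 of 9 libraries. Uqcr11 had a median of 438 CPM in cardiomyocyte-like nuclei, against 528 CPM in endothelial-like nuclei, and was higher in 0 of 9 libraries. The class comparisons rest on how nuclei are assigned. With own marker UMIs, which let in low-Malat1 droplets and leave few nuclei, 60 genes were higher and 0 lower against endothelial-like nuclei, and with those droplets left out 2 were higher and 26 lower. Against fibroblast-like nuclei the same pair of settings gave 61 higher, then 4 higher and 1 lower, and against endocardial-like nuclei 61 higher, then 1 higher and 4 lower. Ribosomal protein genes were lower in cardiomyocyte-like nuclei in 55 of 79 cases against fibroblast-like and 61 of 79 against endothelial-like nuclei. Leaving them and Malat1 out of the fit moved no count between classes over 1.5-fold, and their part in these differences was not tested further.

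**Figure D5:**
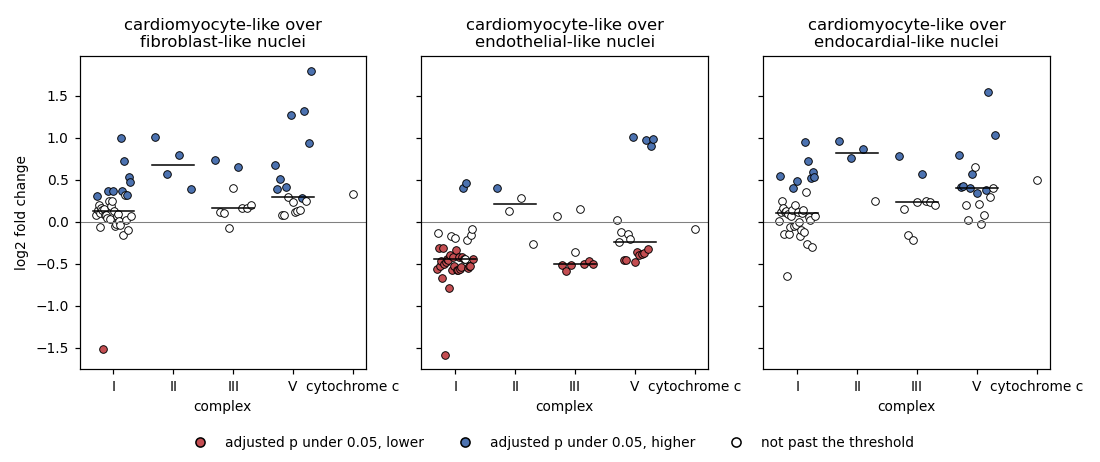
Log2 fold changes of single genes (y axis) by complex (x axis) for cardiomyocyte-like nuclei over each of the other 3 classes. Blue points were higher and red points lower in cardiomyocyte-like nuclei, white points did not pass the threshold, and lines are the median of a complex. All 4 genes of complex II are blue against fibroblast-like nuclei, and 28 of 37 genes of complex I are red against endothelial-like nuclei.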

How the data were processed

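The authors deposited unnormalized UMI counts, 1 whole number for each gene in each barcode. The authors aligned reads with STAR 2.5.2a to mm10, per the submitters' processing notes, and exonic and intronic reads were counted together, per the file names. Strand, annotation and the rule for keeping barcodes were not given in the sources used here, and the labels name no batch. Fresh or frozen handling was not recorded per library. Without strand, 24 of the 68 genes overlap a gene on the other strand whose reads cannot be told apart, in the GENCODE vM21 annotation of GRCm38, and reads of near-identical pseudogene copies listed for Atp5k, Atp5l and Uqcrh are uncertain. Of the names matching the choice of genes, 6 pseudogene names were left out.

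Mitochondrially encoded genes were left out, barcodes needed 500 UMIs, and barcodes of KO P10 library 2 shared with KO P10 library 1 and the top 5% of scrublet scores per library were left out. Sums over all barcodes of a library kept the barcodes left out here. Counts were scaled to 1000 per nucleus, and 2000 variable genes found in at least 10 nuclei, none of them among the 68, were centred within libraries. Clusters came from 30 principal components, 15 neighbours and Leiden clustering at resolution 1.0 (scanpy 1.11.5, seed 1). A name needed a positive mean log2 of its markers, at least 3 markers raised 1.5-fold and no rival class, among 13 classes. Clusters with Malat1 under 40% of the median stayed unnamed, and this threshold was set with the values seen.

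Counts were summed per library and class and tested with the quasi-likelihood test (two-sided) of edgeR 4.0.16 under R 4.3.3, fitted once to the 9 libraries with TMM factors and filterByExpr, and Benjamini-Hochberg adjustment over all genes with a threshold of 0.05. Genes passing the filter are those called tested: 67 of 68 in cardiomyocyte-like, 64 in fibroblast-like, 63 in endothelial-like and 61 in endocardial-like nuclei. Levels are CPM computed with those factors, and log2 fold changes have standard errors derived from the F statistic. Class comparisons and the interaction used the library as a block, and their CPM share factors over all classes. DESeq2 1.42.0, other scaling, filters, class rules and libraries left out were alternatives. So was a fit without ribosomal protein genes and Malat1, for cardiomyocyte-like and fibroblast-like nuclei and between classes. It moved no count over 1.5-fold. The test was checked on simulated counts. Depth limits precision to the library totals given, and intervals cover counting error only.

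The genes described with full values were every one called in cardiomyocyte-like nuclei, up to 6 per comparison in each other class, the 3 most abundant per complex, paralogs, and the 10 called genes with the largest change per pair of classes. 1 gene is not reported here by its own values. Genes and lists were chosen with earlier results of these data known.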

Additional observations from a re-analysis of the deposited data

Results flagged for a closer look

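The change between control P10 and control P6 differed between cardiomyocyte-like and fibroblast-like nuclei for 3 of the 68 genes by the interaction test of edgeR. The same test called 3.25% of all genes, so the count of 3 was near the background. For Cyc1 the log2 change was more negative in cardiomyocyte-like nuclei, with a difference of -1.27 ± 0.25 (SE, adjusted p = 0.00102). Cyc1 had 107, 201 and 186 CPM in fibroblast-like nuclei of control P10 libraries 1 to 3, against 114, 206 and 208 CPM in control P6, where it overlapped. For Atp5sl the difference was -2.41 ± 0.62 (adjusted p = 0.0166), on 7 to 10 UMIs per library in fibroblast-like nuclei of control P10 and 2 or 3 in control P6. For Atp5a1 it was -0.81 ± 0.23 (adjusted p = 0.0374), with 536, 757 and 815 CPM in fibroblast-like nuclei of control P10, against 447, 435 and 548 CPM in control P6. The call on Cyc1 held with each library left out. The call on Atp5sl was lost without control P10 library 1, control P6 library 2 or control P6 library 3, with adjusted p = 0.118 as the highest value. The call on Atp5a1 was lost without control P10 library 1 or 3 or any 1 of the control P6 libraries, with adjusted p = 0.229 as the highest value, and with the size factors of DESeq2 (0.129).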

How the results depend on the processing

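The share of all genes called was not computed for the settings below. Leaving out each library in turn gave these ranges of genes called. For KO P10 over control P10 they were 2 to 12 in cardiomyocyte-like, 0 to 0 in fibroblast-like and endothelial-like, 0 to 1 in endocardial-like nuclei, 5 to 15 over all barcodes and 5 to 29 in low-Malat1 droplets. For control P10 over control P6 they were 3 to 15, 2 to 17, 2 to 9 and 1 to 15 in the 4 classes in that order, 6 to 14 over all barcodes, 4 to 16 in droplets and 1 to 4 for the interaction. Between classes they were 20 to 31 against fibroblast-like, 37 to 50 against endothelial-like and 19 to 28 against endocardial-like nuclei. Other settings that moved a count over 1.5-fold were these. With classes from own marker UMIs the counts were 0 (KO P10) and 5 (age) in cardiomyocyte-like nuclei, 5 (age) in fibroblast-like nuclei, and 61, 60 and 61 between classes. With low-Malat1 clusters also left out they were 0, 0, 5, and 5, 28 and 5. In cluster 2 alone 1 gene passed for KO P10, in cluster 8 alone 5 for age, and with the cardiomyocyte-led droplets added 1 for age, where the median log2 fold change turned to 0.37. In fibroblast-like nuclei of KO P10 the count was 1 with no filter, 2 with DESeq2, 1 with the shared barcodes kept and 1 with the replicate block. With no filter it was 6 (endocardial-like, age) and 21 (against endothelial-like), and with DESeq2 7 (endocardial-like, age). In droplet cluster 3 alone it was 8 for KO P10. With the replicate block 2 genes were called in endothelial-like nuclei of KO P10 and 11 for age, and no other count moved over 1.5-fold. Whether library numbers mark pairs cannot be decided with 3 libraries per group. In cardiomyocyte-like nuclei, deviations of same-numbered libraries correlated at 0.116, -0.131 and 0.120 between KO P10 and control P10, and at 0.262, 0.032 and 0.005 between control P10 and control P6. Those of differently numbered libraries correlated between -0.253 and 0.225 in the first comparison and between -0.32 and 0.349 in the second. Against endothelial-like nuclei with own marker UMIs, Ndufa8 (0.56), Ndufa2 (0.74), Uqcr11 (1.12), Ndufb6 (0.83) and Ndufb11 (0.73) reversed in log2 fold change, and the cause was not tested beyond the entry of droplets by construction. The settings on the low-Malat1 droplets, on single clusters and on leaving droplets out were added after the data were examined. Shallow libraries and 61 to 288 endocardial-like nuclei per library limit what could be detected.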
